A study of Mus musculus with 2112 samples.

Results

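The cells described here are short-term haematopoietic stem cells (ST-HSC) of mouse bone marrow that were cultured in HSPC medium without stimulation, compared between old and young mice. They were chosen by their labels as single-cell wells of the ST population in the unstimulated arm that carry none of the submitters' quality labels for few genes, pct_trans (a term the labels do not explain) or plasma cells. The rule kept 73.2% of 310 such wells, from 4 old and 3 young mice, which is 11.1% of the 2046 single-cell wells among the 2112 wells of the whole series. The old mice carry the labels 2-2, 2-3, 2 and 3 and gave 28, 31, 36 and 40 cells, and the young mice carry the labels 1, 2-1 and 2-3 and gave 36, 29 and 27 cells, 92 in all. Values of the 7 animals are listed below in this order, old animals first. Old mice 2 and 3 and young mouse 1 were on plates 1 and 2, and the other 4 animals were on plate 4, so each plate set holds animals of both ages. The labels give age only as old or young, and strain, sex and age in months were not given in the sources used here. All groups were untreated apart from the culture itself, and a second arm of the study, used below only for comparison, received LPS (100 ng/ml), the bacterial ligand of Tlr4, with Pam3CSK4 (1 µg/ml), a synthetic lipopeptide sensed by Tlr2, over 2 h.

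Short-term HSC stand between long-term HSC (LT-HSC), which sustain blood formation for life and are mostly out of the cell cycle, and multipotent progenitors (MPP), which divide often and feed the blood lineages. In the mouse, ageing is known to enlarge the phenotypic stem cell pool, to shift its output towards myeloid cells and platelets, and to raise a recurrent set of stem cell transcripts. The comparison asks which transcripts differ between unstimulated ST-HSC of old and young mice, and how many cells carry them.

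Each library was a single cell read by SMART-seq2, a full-length protocol without molecular identifiers, and the median depth of the kept cells was 361102 counts, the shallowest holding 8877. Counts were summed per animal, which gave 6942990 to 20387851 counts in each of the 7 sums, and levels are in CPM, the usual depth-scaled counts, with the ribosomal RNA precursor Rn45s left out of each animal's total. CPM take no account of gene length, so they compare animals for a gene and not genes with each other. Cells were not used as replicates, and the tests of shares and per-cell measures used 1 value per animal. The main edgeR and DESeq2 fits used 16 ST-HSC sums of 9 animals, stimulated cells included. The fits across populations used 21 sums of 7 animals. Without a term for the animal, p-values of these fits do not measure the spread between animals alone. Markers of the sort were present: all 12 listed sorted-cell markers were detected, and at equal depth Kit, the stem cell factor receptor, had a read in 98.2% of the cells, the homeobox factor Meis1 in 95.8% and Cd34 in 83.8%. Slamf1 had a read in 4.17% and Cd48 in 3.70% of the cells. Xist was read at 1335 to 3440 CPM in all 7 animals, and Y-linked Ddx3y, Eif2s3y, Uty and Kdm5d reached at most 0.167 CPM. Among the markers of other cells, Ms4a1, Mzb1, Pax5 and Irf4 of plasma and B cells, Cd3e, Cd3g, Cd2, Gzma, Gzmb and Il2rb of T and NK cells, and Emr1, Mrc1 and Ltf of macrophages and granulocytes were at 0 in all 7 animals. Other members of these lists were read: summed over each list, old and young animals stood at 214.3 to 332.2 and 239.97 to 431.96 CPM for plasma and B cells (led by Xbp1), 38.4 to 108.3 and 92.4 to 111.9 CPM for T and NK cells (led by Nkg7), 260.9 to 343.9 and 275.2 to 408.4 CPM for macrophages and granulocytes (led by Lyz2), and 122.7 to 303.4 and 168.1 to 227.8 CPM for stroma and endothelium. The 6 tested macrophage and granulocyte genes had a median log2 difference of -2.94, and 1 of them, the complement gene C1qa, was lower in all old animals (log2 difference -8.82 ± 2.48, edgeR adjusted p = 1). The part of such cells or their RNA in the results below was not tested.

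No gene passed an adjusted p of 0.05 between old and young in the edgeR quasi-likelihood test of the sums. That is 0% of the 12733 genes tested, and the lowest adjusted p was 0.39. At an unadjusted p below 0.05 stood 4.45% of them, 2.88% with the higher level in old animals and 1.57% with the lower. DESeq2 on the same sums called 83 genes, 55 higher and 28 lower in old animals. The limma-voom fit with the animal as a replicate block, which ties the stimulated and unstimulated cells of a mouse together, called 9 genes, 6 higher and 3 lower. CPM of all 4 old animals lay above those of all 3 young animals for 3.35% of the 12732 genes compared, and below them for 3.05%. The genes named next were those with the smallest p in each direction at a mean log2 CPM of at least 5. That mean was taken over all 16 sums, stimulated cells included, so a named gene can be low in unstimulated cells. Stx11, Cxcl16 and Errfi1, for example, reached at most 10.7, 6.91 and 3.42 CPM in the unstimulated sums. None of the named genes is past the adjusted threshold of edgeR.

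The smallest p among genes with higher CPM in old animals was that of Hspa4, a cytosolic chaperone of the heat shock protein 110 family. Its level was 168.3, 231.6, 179.3 and 189.1 CPM in the old animals and 43.9, 84.05 and 108.02 CPM in the young ones. All 4 old animals were above all 3 young animals, and the log2 difference was 1.50 ± 0.28 (SE; edgeR adjusted p = 0.39, DESeq2 adjusted p = 6.37e-05). Tpp2, a large cytosolic peptidase that trims peptides downstream of the proteasome, was at 121.5 to 203.4 CPM in old animals and at 79.7 ± 28 CPM in young ones (SD, n = 3). The groups did not overlap for Tpp2 either, and the log2 difference was 1.01 ± 0.25 (edgeR adjusted p = 1, DESeq2 adjusted p = 0.0119).

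Plscr2, a member of the phospholipid scramblase family, was read only in old animals of this set. Its level was 36.3, 50.9, 86.7 and 75.2 CPM in the old animals and 0 CPM in each of the young animals. The old sums held 3253 counts from 43 cells, 31.9% of all old cells, and no single cell gave more than 11.3% of them, while the 92 young cells held none. Against a floor of 3 counts over the young group, Plscr2 was at least 578.7-fold higher in old animals. That floor covers the counting error of reads alone and not the sampling of cells, so 1 young cell with reads could undo it. In the pools described below, Plscr2 was at 22.5 CPM in young mouse 1. Its adjusted p was 0.39 in edgeR, 5.15e-10 in DESeq2, 0.0196 with the animal as a replicate block, and 0.0342 in limma on log2(mean TPM + 1). A fit over the 21 unstimulated sums of LT-HSC, ST-HSC and MPP, chosen after the data were seen, gave Plscr2 an edgeR adjusted p of 0.000499. That fit had no term for the animal.

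The other 5 genes of the rule with higher CPM in old animals rested on few cells. Havcr2, the immune receptor TIM-3, was at 40.9, 0, 5.14 and 14.8 CPM in old and 0.0835, 0 and 0 CPM in young animals, from 11 old cells and 1 young cell. Serpina3f, a serine protease inhibitor, was read in 16 old and 4 young cells, and old mouse 2-3 stood at 63.8 CPM where old mouse 3 had 0.278 CPM. The syntaxin Stx11 was read in 4 old cells and no young cell, the chemokine Cxcl16 in 5 old cells and 1 young cell, and the serine protease Hpn in 5 old and 2 young cells. The log2 difference of Hpn turned from 4.86 to -5.06 when cells labelled cycling were left out. Old mouse 2-3 had no Havcr2 count, and old mouse 3 had no Stx11 count, so both genes overlapped between the groups. Each became the 1 gene that edgeR called when that mouse was left out: Havcr2 without old mouse 2-3 and Stx11 without old mouse 3.

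Among the genes lower in old animals, Plac8, a small cysteine-rich protein of immune and progenitor cells, was at 86.03, 91.4, 122.4 and 106.1 CPM in old and 308.6, 219.6 and 319.6 CPM in young animals. The highest old animal stood below the lowest young animal, and the log2 difference was -1.44 ± 0.39 (edgeR adjusted p = 1, DESeq2 adjusted p = 0.0469). Reads came from 37.0% of all old cells and 66.3% of all young cells. Rnf220, a ubiquitin ligase, was at 89.3, 79.3, 64.2 and 54.5 CPM in old and at 182.5 to 274.4 CPM in young animals, again without overlap. Its log2 difference was -1.49 ± 0.37 (edgeR adjusted p = 1, DESeq2 adjusted p = 0.0197).

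Zbtb17, the zinc finger partner of Myc known as Miz-1, was at 37.1, 36, 30 and 46.02 CPM in old and 79.6, 96.5 and 236.8 CPM in young animals. The young animal 2-3 stood far above the other young animals, the groups did not overlap, and the log2 difference was -1.63 ± 0.38 (edgeR adjusted p = 1, DESeq2 adjusted p = 0.00584). Pramef8 was at 21.4, 18.3, 19.2 and 15.2 CPM in old and 45.9, 92.9 and 75.8 CPM in young animals, a log2 difference of -1.74 ± 0.46 without overlap. Dynlt1b, a dynein light chain, was at 14.3, 24.4, 44.6 and 19.9 CPM in old and 61.98, 170.6 and 90.8 CPM in young animals. Dynlt1b and Tmem181b-ps (245.5, 397.01, 317.1 and 432.2 CPM in old, 840.4, 665.8 and 698.9 CPM in young) belong to families of near copies that lie next to each other, so how the reads were divided among the copies is uncertain. Crem, a cAMP-responsive transcription factor, was read in 4 old and 10 young cells, Errfi1 in 1 old and 2 young cells and Niacr1 in a single young cell, and these 3 genes give no more than that.

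**Figure D1:**
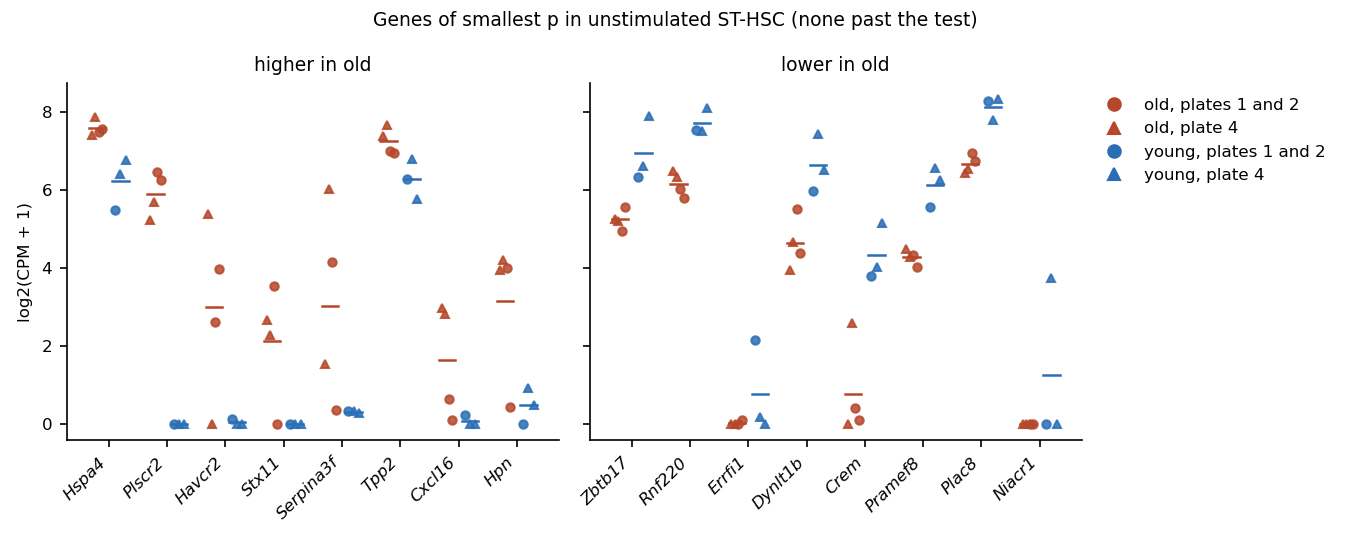
Level of the 16 genes named by smallest p, 8 in each direction, as log2(CPM + 1) on the vertical axis, with 1 point per animal (circles for plates 1 and 2, triangles for plate 4) and a line at the mean of old and of young unstimulated ST-HSC. Hspa4, Tpp2 and Plscr2 had old animals entirely above the young ones, as did Serpina3f by 0.278 against 0.26 CPM. Plac8, Rnf220, Zbtb17, Pramef8, Dynlt1b and Crem had them entirely below, while Stx11, Errfi1 and Niacr1 rest on 1 to 4 cells.

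The share of cells with a read was compared next, because a sum can be carried by 1 cell. Each cell was thinned to 100000 reads without Rn45s, which kept 95.2% of the cells (24, 30, 36 and 39 old, 34, 29 and 24 young) and set 11 shallower cells aside. Among 9153 genes detected in at least 10% of the cells on average, limma called none (0%), with a lowest adjusted p of 0.361 and no call under any alternative run. An unadjusted p below 0.05 was reached by 7.17% of the genes, 6.49% with a higher and 0.677% with a lower share in old animals. The shares leaned to higher values in old animals over all genes: the median difference was 4.16 percentage points, with 4.83% of genes having all old animals above all young ones and 49 genes (0.535%) the other way round. Leaving out young mouse 2-3 gave a median of 1.87 points, leaving out old mouse 2-2 gave 2.72 and leaving out young mouse 2-1 gave 7.15. It was 2.49 when cells labelled cycling were dropped and 1.39 with no filter on low shares. The share of genes at an unadjusted p below 0.05 ran from 3.58% (old mouse 2-2 left out) over 10.6% (old mouse 2-3) to 16.8% (young mouse 2-1). Genes per cell at equal depth, which move with every share, were 3998, 3299, 3684 and 3792 in old and 3115, 3866 and 2797 in young animals. The old mean was 3693 ± 293.4 and the young mean 3259 ± 548.7 (SD, n = 4 and 3), and the difference of 433.5 genes had a two-sided exact permutation p of 0.229, where 0.0571 is the smallest p that 7 animals allow. Their part in the single-gene shares was not tested.

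For several genes the difference in share was far above that median. Aldh1a1, a retinaldehyde dehydrogenase, was detected in 62.5%, 56.7%, 58.3% and 51.3% of the cells of the old animals and in 2.94%, 10.3% and 0% of those of the young animals. The difference was 53.4 points (limma adjusted p = 0.361), and the lowest old animal stood far above the highest young one. Mid1, a microtubule-associated ubiquitin ligase, was detected in 79.2%, 76.7%, 47.2% and 46.2% of old cells and in 20.6%, 13.8% and 12.5% of young cells. The difference was 49.3 points (limma adjusted p = 0.686), and the old animals of plate 4 were above those of plates 1 and 2.

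Plscr2 was detected in 29.2%, 16.7%, 33.3% and 43.6% of old cells and in none of 34, 29 and 24 young cells. A count of 0 in these young animals allows shares of up to 8.82%, 10.3% and 12.5%, and the difference was 29.1 points (limma adjusted p = 0.361). Bmpr1a, a type 1 receptor for bone morphogenetic proteins, was likewise seen in no young cell, against 20.8%, 20%, 11.1% and 25.6% of old cells. In CPM, Bmpr1a stood at 8.46, 38.2, 4.36 and 38.6 in old animals and at 0 in the young, at least 173.8-fold higher against the floor of 3 counts. This bound too covers the counting error of reads alone and not the sampling of cells. Clec1a, a C-type lectin-like receptor, was detected in 25%, 13.3%, 36.1% and 20.5% of old cells and in 2.94%, 3.45% and 0% of young cells. For these 3 genes a majority of old cells gave no read at this depth.

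Other genes differed in share while being detected in all 7 animals. Adam10, a membrane protease, was detected in 95.8%, 96.7%, 94.4% and 94.9% of old cells and in 73.5%, 72.4% and 75% of young cells, a difference of 21.98 points (limma adjusted p = 0.361). The Adam10 CPM overlapped between the ages (356.5 to 483.3 in old, 230 to 408.3 in young), so the share and the summed level did not separate the animals alike. Sdsl, a serine dehydratase-like enzyme, was detected in 66.7%, 63.3%, 69.4% and 71.8% of old and 23.5%, 31.03% and 33.3% of young cells. Its CPM did not overlap, at 134.4, 141.9, 150.5 and 178.5 in old and 67.9, 63.3 and 73.1 in young animals (log2 difference 1.16 ± 0.34, edgeR adjusted p = 1). Cdk6, the cyclin D-dependent kinase, was detected in 66.7%, 73.3%, 55.6% and 56.4% of old and 29.4%, 41.4% and 33.3% of young cells, while its CPM overlapped (97.4 to 258.7 in old, 81.3 to 133.1 in young). Casp12 and Gemin6 were above in all old animals, by 26.97 and 20.3 points, but were rarer in young cells. Casp12 was detected in 38.5% to 45.8% of old and 12.5% to 17.2% of young cells. For Gemin6 the shares were 22.2% to 30% and 2.94% to 8.33%.

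Fewer genes had lower shares in all old animals. Plac8 was detected in 45.8%, 43.3%, 38.9% and 28.2% of old cells and in 58.8%, 72.4% and 66.7% of young cells, a difference of -25.1 points (limma adjusted p = 0.686). Lgals1, the galactose-binding lectin galectin-1, differed by -19.1 points, and Il1rap, the accessory chain of the interleukin 1 receptor, by -16.1 points. The animals of the 2 ages were apart for all 3 genes, against the general lean of shares to higher values in old animals. Some shares divided by plate and not by age: Birc5 was detected in 61.1% and 51.3% of cells of old mice 2 and 3 and 70.6% of young mouse 1, all on plates 1 and 2, and in 4.17% to 20% of cells of the animals on plate 4. Bambi-ps1 divided the same way, with 25%, 30.8% and 41.2% on plates 1 and 2 and at most 6.90% on plate 4.

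**Figure D2:**
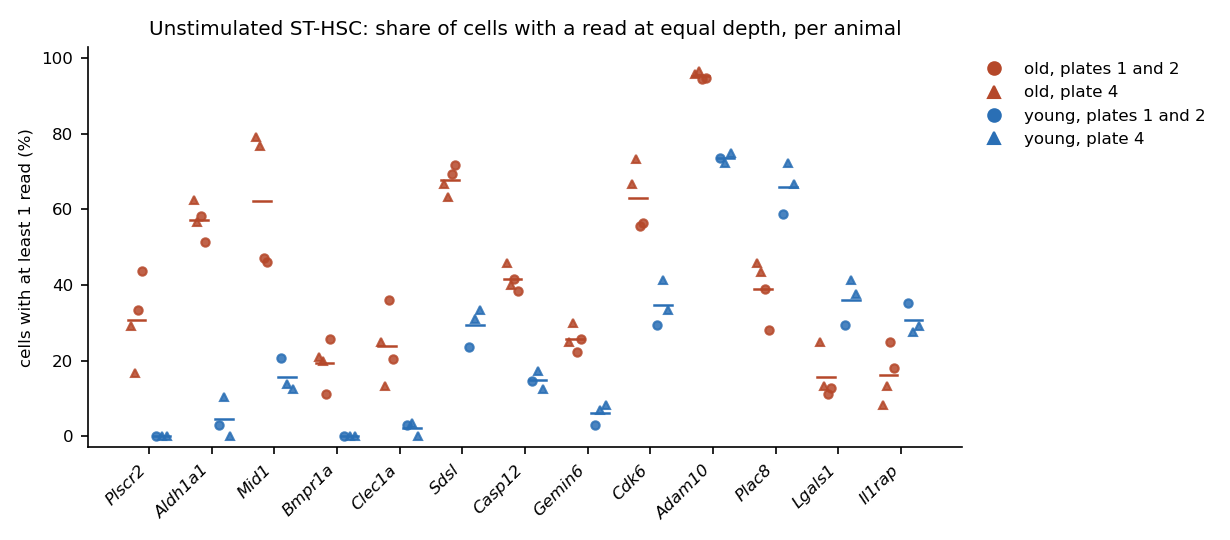
Share of cells with at least 1 read, in percent, for 13 genes after each cell was thinned to 100000 reads, with 1 point per animal, circles for plates 1 and 2, triangles for plate 4 and lines at the group means. Aldh1a1, Plscr2, Bmpr1a and Clec1a had young animals at or below 10.3%, Adam10 was above 70% in every animal, and Plac8, Lgals1 and Il1rap were lower in all old animals.

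Plscr2, Aldh1a1, Mid1, Bmpr1a and Clec1a were then read together in single cells, as a set chosen after their values were seen and so given with no test. At least 1 of the 5 genes was detected in 22 of 24, 27 of 30, 33 of 36 and 34 of 39 cells of the old animals (91.7%, 90%, 91.7% and 87.2%). In the young animals it was detected in 9 of 34, 5 of 29 and 3 of 24 cells (26.5%, 17.2% and 12.5%). Over all cells the share was 89.9% in old and 19.5% in young animals. The genes were chosen for shares higher in old than in young animals, so this direction was fixed by the choice. Cells without a read at this depth may still hold the transcripts.

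These transcripts were not limited to the same old cells. Among the 41 old cells with Plscr2, Aldh1a1 was detected in 48.8%, against 60.2% of the old cells without Plscr2. Mid1 was detected in 56.1% and 61.4%, Clec1a in 29.3% and 21.6%, and Bmpr1a in 29.3% and 14.8%. These shares pool the cells of 4 animals and compare cells, not replicates. Nor were the positive cells limited to those labelled cycling by the submitters: Plscr2 was detected in 35.7% of the 42 old cells labelled cycling and in 29.9% of the other 87, and Aldh1a1 in 64.3% and 52.9%.

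The same genes were followed in the other cells of these animals. The populations come from the same mice, so they are not independent of each other, and their values are given side by side. The fit of 21 sums had no term for the animal, and its age differences were not fitted with the animal as a block. Plscr2 was at 96.5 to 136.4 CPM in old and 7.58 to 47.8 CPM in young LT-HSC, at 4.06 to 19 CPM in old MPP and at 0 in young MPP (edgeR adjusted p = 0.133 in LT-HSC and 0.00517 in MPP, in the fit of 21 sums). In stimulated ST-HSC it was at 56.5 to 151.8 CPM in 4 old and 0 to 26.8 CPM in 5 young animals. The ages were apart for Plscr2 in all 4 sets of cells, and its median in old animals was 125.7 CPM in LT-HSC, 63.1 CPM in unstimulated ST-HSC and 12.7 CPM in MPP, an order that was not tested. Aldh1a1 was at 213.1 to 513.5 CPM in old and 127.4 to 187.99 CPM in young LT-HSC, and at 22.6 to 78.3 CPM in old and 0 in young MPP (edgeR adjusted p = 0.0218 in MPP).

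Mid1 kept young animals at or below 10.7 CPM in LT-HSC, MPP and stimulated ST-HSC, where old animals stood at 26.8 to 155.8 CPM (edgeR adjusted p = 0.0205 in LT-HSC). Bmpr1a was at 0 in young LT-HSC and young MPP and at 6.11 to 20.3 CPM and 4.49 to 13.6 CPM in the old ones (edgeR adjusted p = 0.0205 and 0.13). Clec1a was at 213.7 to 288.9 CPM in old and 24.5 to 33.3 CPM in young LT-HSC, and no MPP sum exceeded 3.09 CPM. Plac8 showed the opposite order of levels over the populations. It was at 0 to 6.74 CPM in old and 20 to 79.97 CPM in young LT-HSC (log2 difference -4.77, edgeR adjusted p = 0.00485), and at 719.2 to 912 CPM in old and 762.2 to 851 CPM in young MPP, where the ages overlapped (edgeR adjusted p = 1). Rnf220 was lower in old LT-HSC as well, by a log2 difference of -1.21 (edgeR adjusted p = 0.0251), while Sdsl was at 98.7 to 159.4 CPM in old and 118.3 to 160.4 CPM in young LT-HSC and overlapped.

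**Figure D3:**
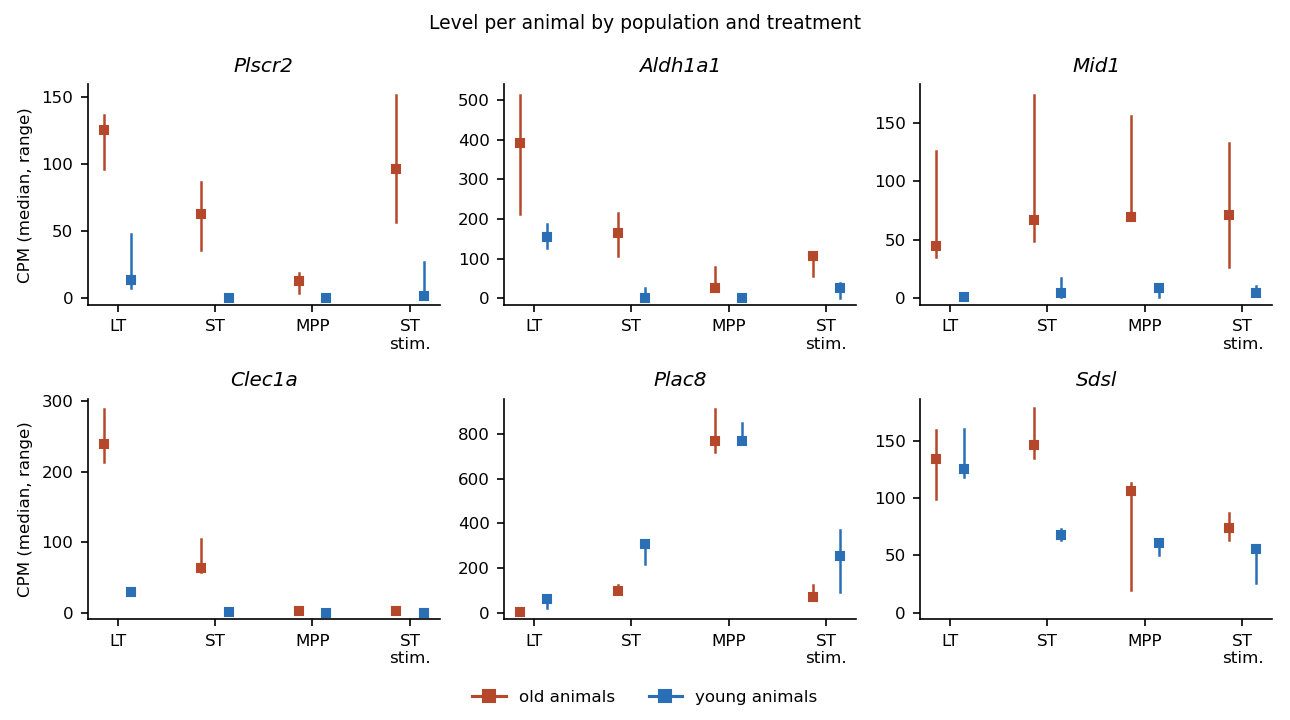
CPM of 6 genes in LT-HSC, ST-HSC and MPP of the unstimulated arm and in stimulated ST-HSC, with the median as a square and the range over animals as a line, old beside young. By median, Plscr2, Aldh1a1 and Clec1a were highest in old LT-HSC, Mid1 had young animals near 0 in LT-HSC, MPP and stimulated ST-HSC, and Plac8 was highest in MPP of both ages.

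Detection of any of Plscr2, Aldh1a1, Mid1, Bmpr1a and Clec1a was counted in these cells in the same way. It was 92%, 80%, 79.5% and 100% in stimulated old ST-HSC and 25% to 39.3% in the 5 stimulated young animals, 2 of which (young mice 2 and 3) have no unstimulated cells. In LT-HSC it was 95.8% to 100% in old and 55.9% to 62.5% in young animals, and in MPP 75% to 95.8% and 4.35% to 34.5%. The pools of 100 unstimulated ST-HSC of the same 7 animals held other cells, at 52110 to 815678 counts per animal, and in a pool fewer cells of a type and less RNA per cell cannot be told apart. edgeR called none of 2947 genes there (0%), with 38 genes at an unadjusted p below 0.05 and a lowest adjusted p of 0.0743. Plac8 was at 89.96, 100.5, 19.2 and 58.1 CPM in old and 277.9, 498.3 and 559.7 CPM in young pools, so the ages were apart (log2 difference -2.46 ± 0.85, edgeR adjusted p = 1). Mid1 had 1, 9, 22 and 6 counts in the old pools and 0 in the young ones, and at this depth a count of 0 does not set the ages apart. Hspa4 and Tpp2 leaned the other way than in the single cells, at log2 differences of -0.76 ± 1.06 and -2.04 ± 1.27 (edgeR adjusted p = 1 for each). Hspa4 was at 157.4, 67.02, 32.8 and 19.4 CPM in old and 112.7, 64.6 and 171.04 CPM in young pools, and Tpp2 at 44.98, 50.3, 15.1 and 0 CPM in old and 127.7, 119.97 and 31.1 CPM in young pools, both with overlap. Plscr2 overlapped as well, with 22.5, 0, 2.74 and 12.9 CPM in old and 22.5, 0 and 0 CPM in young pools. Aldh1a1 overlapped too, at 22.5, 150.8, 20.5 and 77.5 CPM in old and 37.6, 27.7 and 77.7 CPM in young pools. Every young pool thus held Aldh1a1, from 5, 3 and 5 counts. The young single-cell sums of Aldh1a1 stood at 0.334, 25.2 and 0 CPM, and the cause of this difference was not tested.

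The gene lists were described by their counts, with no member past the adjusted threshold of edgeR in any list. The list of transcripts known to be higher in aged HSC had 35 members tested, with a median log2 difference of 1.21, beside 0.02 for all 12733 genes. Of these, 11 were higher and 0 lower at an unadjusted p below 0.05, beside 2.88% and 1.57% of all genes. All old animals were above all young ones for 6 (Aldh1a1, Plscr2, Mt1, Sdpr, Rorb and Cpne8) and below for 1 (Mllt3), beside 3.35% and 3.05% of all genes. Sdpr, a caveola-associated protein, was at 35.1, 6.75, 24.9 and 30.1 CPM in old animals, from 10 cells, and at 0 in young ones. Cpne8, a calcium-dependent membrane-binding protein, was at 72.9, 48, 54.95 and 67.4 CPM in old and 33.7, 6.63 and 10.7 CPM in young animals (log2 difference 2.17 ± 0.69). The P-selectin gene Selp (16.6, 142.6, 12.8 and 62.7 CPM in old, 0, 42.7 and 0.205 CPM in young), Vwf and Itgb3 overlapped. The 22 tested members of the list of transcripts known to be lower in aged HSC had a median of 0.28, which was 0.09 or 0.10 in the TPM fits and -0.07 without cells labelled cycling, with 2 (Dntt and Cdc6) above and 1 (Arhgap30) below in all old animals.

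Stem cell identity genes gave a median of -0.11 over 27 tested members, and 0.08 without cells labelled cycling. The transcription factors Hlf, Meis1, Hoxa9 and the elongation cofactor Mllt3 were lower in all old than in all young animals, and Txnip was higher. Beside these stand 3.05% of all genes lower and 3.35% higher. The log2 differences were -0.48 ± 0.61 for Hlf, -0.37 ± 0.33 for Meis1, -0.79 ± 0.76 for Hoxa9 and -1.33 ± 0.92 for Mllt3. No identity gene was lower at an unadjusted edgeR p below 0.05. Hlf was at 442.4, 483.1, 246.9 and 398.7 CPM in old and 526.1, 614.4 and 557.2 CPM in young animals, and Mllt3 at 22.1, 47.4, 37.3 and 42.3 CPM in old and 105.7, 75.3 and 102.7 CPM in young animals. Txnip, the thioredoxin-interacting protein, was at 526.7, 494.8, 535.7 and 387.4 CPM in old and 240.1, 307.8 and 293.5 CPM in young animals (log2 difference 0.92 ± 0.40). Of the 12 listed sorted-cell markers, 2 (Hlf and Meis1) were lower in all old animals, beside 3.05% of all genes, and the others overlapped. Kit was at 619.1 to 2301 CPM in old and 687.6 to 2482 CPM in young animals. Cd34 was at 569.3 to 1091 and 1003 to 1592 CPM, and Flt3 at 165.2 to 430 and 262.7 to 567.02 CPM. Procr also overlapped between the ages.

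Lineage lists differed in median but rested on few cells where the median was large. The erythroid list had a median of 2.44 over 13 members (0.90 in the fit of log2(mean TPM + 1)), and its members with the smallest p were Gata1, read in 3 old cells and 1 young cell, and carbonic anhydrase Car1, read in 3 old cells and 1 young cell (153.2, 255.5, 147.96 and 0 CPM in old, 0.167, 0 and 0 CPM in young). At an unadjusted edgeR p below 0.05, 4 erythroid members were higher and 1, Hbb-b2, was lower (log2 difference -3.07 ± 1.44). Hbb-b1 also leaned lower (-1.49 ± 1.35). Ermap was above and Hbb-b2 below in all old animals, beside 3.35% and 3.05% of all genes. Summed over the 14 erythroid markers, the level was 1128 to 2162 CPM in old and 1097 to 1594 CPM in young animals, led by Car2. The megakaryocyte list had a median of 0.65 over 19 members (0.12 in the TPM fits), with Rab27b and Sdpr above in all old animals, beside 3.35% of all genes. Sdpr was read in 10 old cells. The marker sum of this list was 1738 to 2371 CPM in old and 1348 to 1821 CPM in young animals. The lymphoid list had a median of -0.32 over 11 members (-0.25 with genes absent from 1 age at their bound) and the myeloid list -0.58 over 11 (-0.23 in the fit of log2(mean TPM + 1)). Ikzf1, a lymphoid zinc finger factor, was at 122.99, 98.6, 104.1 and 138.2 CPM in old and 205.7, 183.2 and 141.1 CPM in young animals, and Dntt, which adds bases to immunoglobulin joints, was at 60.3, 45.5, 12.8 and 59.4 CPM in old and 0, 6.89 and 1.85 CPM in young animals.

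Inflammatory and antigen presentation lists had medians between -0.38 and 0.74. The NF-κB list had a median of 0.22 over 35 members (0.20 with absent genes at their bound), and Rel, an NF-κB subunit, was at 23, 33.6, 9.28 and 19.7 CPM in old and 35.5, 57.9 and 97.96 CPM in young animals (log2 difference -1.45 ± 0.40, edgeR adjusted p = 1). Nfkb2 was at 27.6, 38.2, 13 and 12.6 CPM in old and 45.4, 37.0 and 69.2 CPM in young animals, with a small overlap (log2 difference -1.13 ± 0.31). These were the 2 members lower at an unadjusted p below 0.05, and 4 were higher: Clic4 by 0.80 ± 0.24, Plaur by 2.46, Tnfaip3 by 1.14 and Cxcl10 by 6.97 on the log2 scale (edgeR adjusted p = 1 for each). The interferon list had a median of -0.38 over 30 members, the Toll-like receptor pathway 0.26 over 20 and the immediate early genes 0.74 over 24 (0.16 and 0.05 in the TPM fits). The receptors of the ligands used in the stimulated arm overlapped: Tlr2 was at 0.779 to 37.8 CPM in old and 0.0835 to 42.6 CPM in young animals, and Tlr4 at 6.05 to 51.95 and 2.51 to 22.6 CPM. Among 16 genes of the major histocompatibility complex (median 0.34, and 0.12 in the TPM fits), the class II chains H2-Aa and H2-Eb1 were above in all old animals, beside 3.35% of all genes. The log2 difference of H2-Eb1 was 1.54 ± 1.33 (edgeR unadjusted p = 0.26). The class II chain H2-Ab1 overlapped, at 219.2, 311.3, 96.8 and 177.3 CPM in old and 83.6, 179.15 and 40.7 CPM in young animals. H2-Aa was at 162.9, 122.99, 164.7 and 247.7 CPM in old and 106.6, 51.6 and 47.6 CPM in young animals (log2 difference 1.36 ± 0.41), and was detected in 33.3% to 58.97% of old and 17.6% to 27.6% of young cells. Heat shock and stress genes had a median of -0.03 over 17 members. The cytosolic chaperone Hsp90ab1 (3434 to 4021 CPM in old, 3032 to 3196 CPM in young), the mitochondrial co-chaperone Hspe1 and Txnip were above in all old animals, beside 3.35% of all genes. Oxidative phosphorylation (24 members) and ribosomal protein genes (22 members) had a median of 0.13 each, with no member apart.

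**Figure D4:**
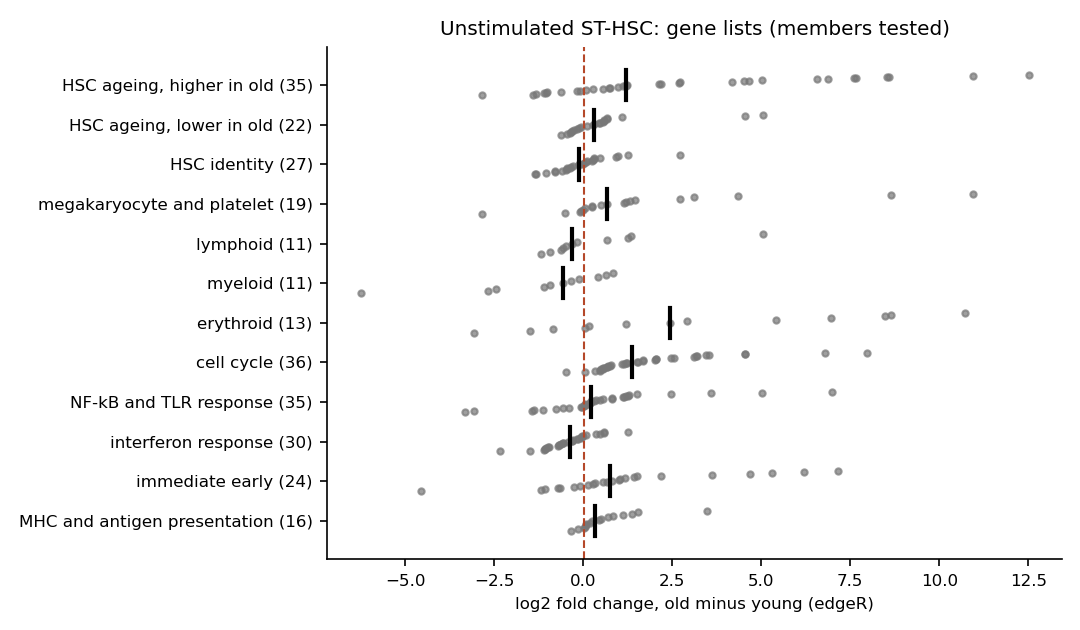
Log2 difference, old minus young, of each tested member of the gene lists in unstimulated ST-HSC, with a black bar at the list median and a dashed line at the median of all tested genes. The list of transcripts higher in aged HSC (median 1.21), the cell cycle list (1.36) and the erythroid list (2.44) lay to the right of the dashed line at 0.02, and no member was past the adjusted threshold.

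The cell cycle list had 36 members tested and a median of 1.36 (0.69 in the fit of log2(mean TPM + 1)), and 11 of them, Top2a, Ccna2, Ccnb1, Plk1, Aurkb, Birc5, Nusap1, Rrm1, Rrm2, Ccne1 and Cdc6, were above in all old animals with none below, beside 3.35% and 3.05% of all genes. Of these, Birc5 also divided by plate in its share of cells, as given above, and several rest on few cells. Summed over the list, the level was 3583 ± 674.5 CPM in old (2723 to 4325) and 2145 ± 690.5 CPM in young animals (1359 to 2654), without overlap. Top2a, the topoisomerase of dividing cells, was at 120.2, 228.05, 71.9 and 86.4 CPM in old and 47.6, 23.8 and 50.3 CPM in young animals. Ccna2, the cyclin of S phase and mitotic entry, was at 69.1, 89.2, 29.4 and 14.3 CPM in old, from 18 cells, and 1.92, 3.90 and 0 CPM in young, from 5 cells. Cells labelled cycling made up 35.7%, 29%, 44.4% and 25% of the kept cells of the old and 25%, 37.9% and 7.41% of those of the young animals. These shares overlapped, and the difference of 10.1 points had an exact permutation p of 0.4 (9.72 points within plates 1 and 2, 9.70 points within plate 4). With the cells labelled cycling left out, the median of the cell cycle list was -0.31, that of the erythroid list -0.01 and that of the list higher in aged HSC 1.34, and the log2 differences of Birc5 and Top2a became -0.78 and -0.15.

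The other measures per cell did not separate the ages. Over the 5 measures tested, the adjusted exact permutation p was 0.667 for genes per cell and for cells labelled cycling. Genes per cell differed by 622.6 within plates 1 and 2 and by 316.6 within plate 4, in the same direction. The share of wells kept differed by -1.34 points (exact permutation p = 0.971), Rn45s by -4.97 points of all counts (p = 0.4 in the exact permutation test) and the median counts per cell by 45095 (exact permutation p = 0.629). Rn45s made up 16.6%, 27.1%, 11.2% and 12.5% of the counts of old and 15.6%, 19% and 30.8% of those of young animals.

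The age difference of ST-HSC was set against that of LT-HSC from the same animals by an interaction test in edgeR over 21 sums. Of 13344 genes tested, 60 (0.45%) had a higher old-minus-young log2 difference in ST-HSC than in LT-HSC and 1 (0.00749%) a lower one, with 1268 genes at an unadjusted p below 0.05. The test compares ratios of old to young, not gaps in CPM. For all 60 genes the ST-HSC value was above 0, and for 58 of them the LT-HSC value was below 0. The cell cycle list of 36 genes gave 12 of the 60. That list is not complete, and other called genes of cell division, such as Nuf2, Spc24 and Cdc25c, are not on it. Ube2c, the ubiquitin-conjugating enzyme of mitotic exit, was at 14.9, 53.2, 11.1 and 6.39 CPM in old and 6.77, 1.43 and 0 CPM in young ST-HSC, against 2.74, 0.313, 0.474 and 4.03 CPM in old and 118.7, 105.6 and 157.5 CPM in young LT-HSC. The interaction of Ube2c was 9.04 ± 1.40 on the log2 scale (edgeR adjusted p = 0.00618), and the ages were fully apart in LT-HSC and overlapped by 1 animal in ST-HSC. Rrm1, a subunit of ribonucleotide reductase, had an interaction of 3.21 ± 0.51.

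These counts depended on the libraries in the fit. The total of 61 genes became 7 without young mouse 2-3 and 14 when young mouse 1 was left out. It was 29 with old mouse 2-3 left out, 30 for old mouse 2-2, 34 for old mouse 2 and for young mouse 2-1, and 86 for old mouse 3. A fit of the 14 LT-HSC and ST-HSC sums alone, chosen after the data were seen, gave 2 genes, and without the cells labelled cycling it gave 2 as well, Plscr2 and Sdpr. Sdpr averaged 287.9 CPM in old and 144.6 CPM in young LT-HSC, against 24.2 and 0 CPM in ST-HSC. For Plscr2 the means were 121.1 and 22.99 CPM in LT-HSC, against 62.3 and 0 CPM in ST-HSC. Both genes thus had the larger gap in CPM in LT-HSC, while young ST-HSC were at 0. The fit with the animal as a replicate block gave 51 genes. Summed over the cell cycle list, LT-HSC stood at 1606 ± 464.7 CPM in old and 5712 ± 1348 CPM in young animals, the reverse of the order in ST-HSC, and MPP at 9315 ± 565.1 and 7045 ± 844.4 CPM. Cells labelled cycling were 4.00% to 13.8% of old and 41.4% to 63% of young LT-HSC, and their part in the interaction beyond the fit without them was not tested.

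The same interaction test found no gene whose age difference differed between ST-HSC and MPP (0%, edgeR), with 5.41% of genes at an unadjusted p below 0.05. Between unstimulated and stimulated ST-HSC edgeR found none of 12733 genes (0%), with 4.72% at an unadjusted p below 0.05. A count of 0 here does not show that the age differences were equal.

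**Figure D5:**
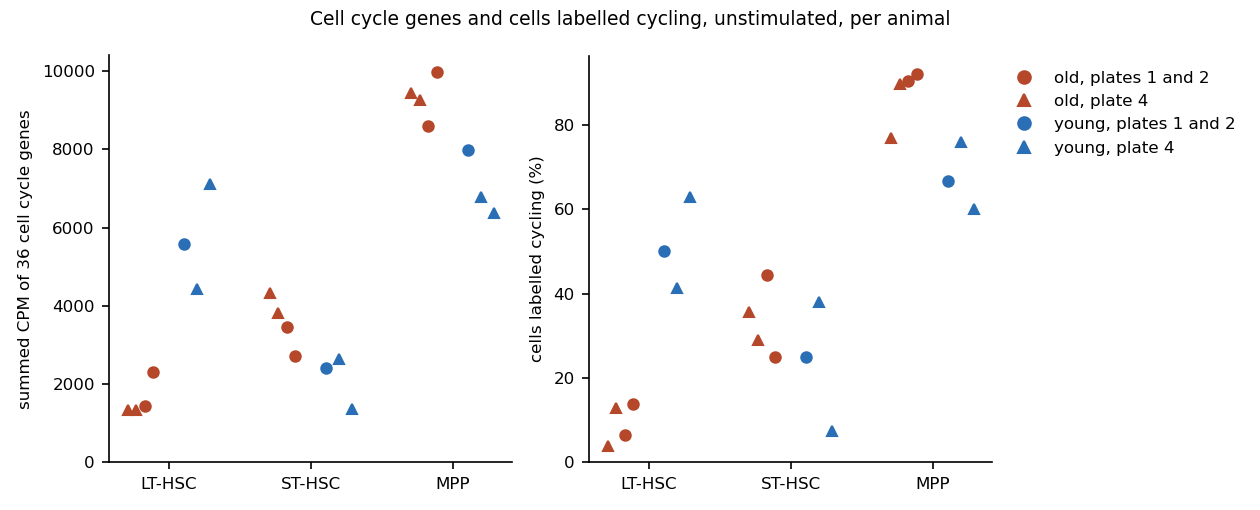
Summed CPM of 36 cell cycle genes and percent of cells labelled cycling, with 1 point per animal, in unstimulated LT-HSC, ST-HSC and MPP of old and young mice. In summed CPM, old animals were below the young in LT-HSC (1606 against 5712 CPM on average) and above them in ST-HSC (3583 against 2145 CPM). The percent of cells labelled cycling overlapped between the ages in ST-HSC.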

How the data were processed

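SMART-seq2 was run on wells of 1 cell or of 100 cells, per the labels' protocols. The authors deposited expected counts per gene symbol for each well, as whole numbers, and TPM, abundances scaled within each well. Per the submitters' processing notes, RSEM and the mm9 genome were used, and no version was given. No positions are printed, since the tables hold symbols alone. The 788 columns of the table of counts and 1430 of the TPM table that belong to other groups were not used here. Wells of plate 4 carry other mouse numbers in their titles than in the mouse label, and the mouse label was used.

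Expected counts of kept cells were summed per animal and rounded. All 16 ST-HSC sums (2 ages, with and without stimulation) were fitted together in edgeR 4.0.16 (quasi-likelihood test, TMM, filterByExpr) in R 4.3.3 with the plate set (plates 1 and 2, or plate 4) as a covariate and Benjamini-Hochberg adjustment at 0.05. The standard error is the log2 difference divided by the root of F. Shares of cells with at least 1 read were fitted on the arcsine square root scale with limma 3.58.1. DESeq2 1.42.0, limma-voom with the animal as a block, and limma on log2(mean TPM + 1) or + 0.1, for a mean TPM of 5 or more, were alternatives. The stimulated and unstimulated cells of a mouse share the animal, which is where the pairing comes from, and the consensus correlation within animals was 0.0202. Measures per cell were compared by two-sided exact permutation of the 35 ways to pick 3 of 7 animals.

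The cells and gene lists were chosen with earlier results of these data known. Named genes are the 8 with the smallest p per direction at a mean log2 CPM of at least 5 (unnamed models and Rn45s skipped), at most 4 of each list by smallest p, and a fixed set; genes named for their shares or for the interaction were chosen after their values were seen. Of 451 listed symbols in 24 lists, 6 were read under an older symbol and 4 were not matched. Besides the lists described, the cyclin list had a median log2 difference of 0.20 and the chromatin list -0.13. A fold against a group without counts uses a floor of 3 counts over that group. Reads carry no molecular identifiers, so floors, limits and intervals cover counting error only. The scripts were tested on simulated data.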

Additional observations from a re-analysis of the deposited data

Results flagged for a closer look

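Log2 age differences that differed between ST-HSC and LT-HSC were counted for 60 genes in the direction of ST-HSC. The interaction on the log2 scale was 2.00 for Hspa4, 2.68 for Hmgb2, 3.21 for Rrm1, 5.42 for Birc5, 6.96 for Plk1, 7.37 for Ccna2, 8.90 for Nusap1, 9.04 for Ube2c and 10.74 for Ccne1. It was 9.86 for Plscr2, 9.90 for Sdpr and 20 for Gata1, and -13.26 for Oscp1, the 1 gene in the other direction. Fitted values of genes with a group at 0 depend on the prior count and are no bound. Oscp1 was at 7.83, 7.67, 9.21 and 1.97 CPM in old and 0 in young LT-HSC, and at 0, 2.08, 0.0552 and 0.0695 CPM in old and 2.59, 11.0 and 13.8 CPM in young ST-HSC. Plscr2 and Sdpr were the 2 genes called again when the LT-HSC and ST-HSC sums were fitted alone without the cells labelled cycling. Both were at 0 in young ST-HSC and were read in young LT-HSC.

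In 7 of 92 groups of 4 old animals, 1 animal lay far from the others, where chance gives about 1 group in 20. The animal far above the others was at 174.3 CPM for Mid1 (old mouse 2-3), 104.6 CPM for Clec1a (old mouse 2), 304.4 CPM for Mycn (old mouse 2-2), 5.07 CPM for Crem (old mouse 2-3) and 0.0695 CPM for Errfi1 (old mouse 3, a single cell). The animal far below the others was at 182.8 CPM for Ltb (old mouse 2-2) and 8.69 CPM for Mt1 (old mouse 3). The old animals of Mid1, Clec1a and Mt1 were all above all young animals, the flagged animal included.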

How the results depend on the processing

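No gene was called in the sums under the fit of 7 unstimulated sums only, median-of-ratios factors, no Rn45s, no plate set, no cells labelled cycling, all wells whatever their quality labels, or cells thinned to 100000 reads. Calls were 83 in DESeq2, 60 without a filter on low counts, 1 in each TPM fit and 4 in the added fit of 21 sums, and 0 to 1 with each animal left out. With the animal as a replicate block, 9 genes were called in the sums, 0.382% of genes tested in the interaction with LT-HSC and 0 in those with MPP and with stimulation. No filter gave 1 gene in the pools, 87 and 56 genes in the interactions with MPP and stimulation and 1.61% of genes in that with LT-HSC, which was 0.457% as reported. With each animal left out, 0 to 2, 0 to 1 and 0.0503% to 0.659% were called, and the added fits of 14 sums called 0.0157%, or 0.0163% without cells labelled cycling. With each animal left out, wells kept differed by -12.1 to 5.65 points and median counts per cell by -2900 to 85800. The cause of these shifts was not tested.

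Of 1879 values of 87 genes, 29 in 11 genes changed sign and 47 became significant. Without cells labelled cycling these were Hpn -5.06, Hmgb2 -0.02, Birc5 -0.78, Kit 0.11, Itga2b 0.28, Jun -0.14 and Top2a -0.15. With the replicate block they were Itga2b 0.16, Jun -0.39, Satb1 0.34 and Tlr2 1.86. TPM + 1 gave Jun -0.20 and Tlr2 0.32, TPM + 0.1 gave Jun -0.29 and Tlr2 0.77, no plate set gave Tlr2 0.34 and Bambi-ps1 0.32, and thinned cells gave Tlr2 0.27. With each animal left out, Clec12a ran from -7.94 to 0.59, Kit from -0.29 to 0.05, Itga2b from -0.63 to 0.81, Jun from -0.33 to 1.5, Satb1 from -0.63 to 0.68, Tlr2 from -1.34 to 1.83 and Bambi-ps1 from -3.37 to 0.32. In the LT-HSC interaction without cycling-labelled cells Ccna2 was -1.17 and Birc5 -1.26. Depth limits what 24 to 39 cells an animal can show: with no read in 24 cells, up to 12.5% of cells may still give a read at that depth, and more may hold the transcript.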
